A study of Mus musculus with 7 samples.

Results

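The reverse tetracycline transactivator rtTA and the transcription factor genes Pou5f1, Sox2, Klf4, Myc and Nanog were followed in every cell type of the mouse pancreas by single-cell RNA-seq. These 6 rows were taken by name from the 3 deposited count tables, which list 33864 genes in all, and each of the 6 has a row in every table. Each level is a count of unique molecular identifiers (UMIs, 1 per captured RNA molecule), given per 1000000 UMIs of the same cells (CPM). The pancreas of 7 mice gave 7 libraries, and each cell carries a cluster name given by the authors.

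All mice were 2 months old and labelled C57BL/6, and the methods give the background as C57BL/6J.Ola.Hsd. The 3 i4F mice came from the strain i4F-B: 1 copy of Pparg carries the 4 factor genes as a cassette that doxycycline can switch on in any tissue, and 1 copy of Rosa26 carries rtTA. They drank doxycycline at 1 mg/ml in water with 7.5% sucrose for 7 days, as did the 2 wild-type (WT) mice, which carry neither transgene. The 2 caerulein mice were wild type and received 7 hourly injections of 100 µg/kg caerulein, a cholecystokinin analogue that injures the pancreas, on each of 2 consecutive days. No doxycycline is listed for them, so caerulein and the absence of doxycycline cannot be told apart when they are set beside WT.

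rtTA is the switch of the system: bound to doxycycline, it binds the promoter of the cassette and starts its transcription. Pou5f1 (OCT4), Sox2, Klf4 and Myc are the Yamanaka factors, which together can return differentiated cells towards pluripotency. Pou5f1 and Sox2 are normally active in pluripotent and some progenitor cells, whereas Klf4 and Myc are also used by many adult tissues and respond within minutes to stimuli. Nanog is a pluripotency gene that the cassette does not hold.

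The counts do not separate cassette transcripts from those of the endogenous genes. On GRCm38 these are Pou5f1 on chromosome 17 (35506018 to 35510772), Sox2 on chromosome 3 (34650405 to 34652461), Klf4 on chromosome 4 (55527143 to 55532466), Myc on chromosome 15 (61985391 to 61990374) and Nanog on chromosome 6 (122707489 to 122714633). Pou5f1 and Nanog have near-identical pseudogene copies elsewhere in the mouse genome, so their counts are uncertain where reads could be split. A separate row for sequence downstream of the cassette held 1 UMI in all 7 libraries, in an i4F 2 macrophage. The libraries were made with a 3′ kit, so RNA of the cassette genes may be counted incompletely.

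Libraries held 4327 to 15138 cells and 15469018 to 64784216 UMIs, and the median cell had 1248.5 (i4F 3) to 4247 (i4F 1) UMIs. Pairs of libraries shared 3 to 39 cell barcodes. The library i4F 3 stood apart from the other i4F libraries: 91.2% of its stellate cells lay in the cluster Activated_Pancreatic_Stellate_2, against 3.28% and 4.70% in i4F 1 and i4F 2, and 97.2% of its acinar cells lay in Acinar_1, against 1.85% and 7.56%. Of the 21 acinar markers used here only 2 have a row in any table, so these markers test the acinar label weakly, but the leading genes of WT Acinar and i4F Acinar_1 include the acinar genes Gp2, Pnliprp2, Pla2g1b and Cuzd1. Acinar_2, which holds 98.1% and 92.4% of the acinar cells of i4F 1 and i4F 2, is led by Ly6g6c, Sprr2b, Sprr2a3, Slurp1 and Krt13, genes of squamous epithelium, which goes against its name. The caerulein Acinar cluster had ductal markers highest, with 6 of 11 raised, though Pnliprp2 is among its leading genes. Of the 40 clusters, 7 others, by the marker lists used here, which hold none for mesothelium, in the stellate, macrophage and B cell classes had another class's markers highest: pericyte genes in WT Activated_Pancreatic_Stellate, neutrophil or dendritic genes in 4 macrophage clusters, dendritic genes in the caerulein B cells and plasma cell genes in the i4F follicular B cells. The 10 leading genes of i4F Activated_Pancreatic_Stellate_2 hold 1 stellate marker, Dcn, but also Slpi, Dmkn and Upk3b, which are among the leading genes of the caerulein Mesothelium cluster, and 3 of the 8 stellate markers are raised in it. The i4F tables name no mesothelium cluster, so mesothelial cells within that stellate cluster cannot be told apart here. The WT B cell cluster had B cell markers highest, but its 10 leading genes include Jchain, Mzb1 and antibody chain genes. Those of i4F B_lymphocytes include Cd79a, Cd79b and Ms4a1. NK markers were highest in the WT cluster of NK and T cells, and T cell markers in the i4F one.

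**Figure D1:**
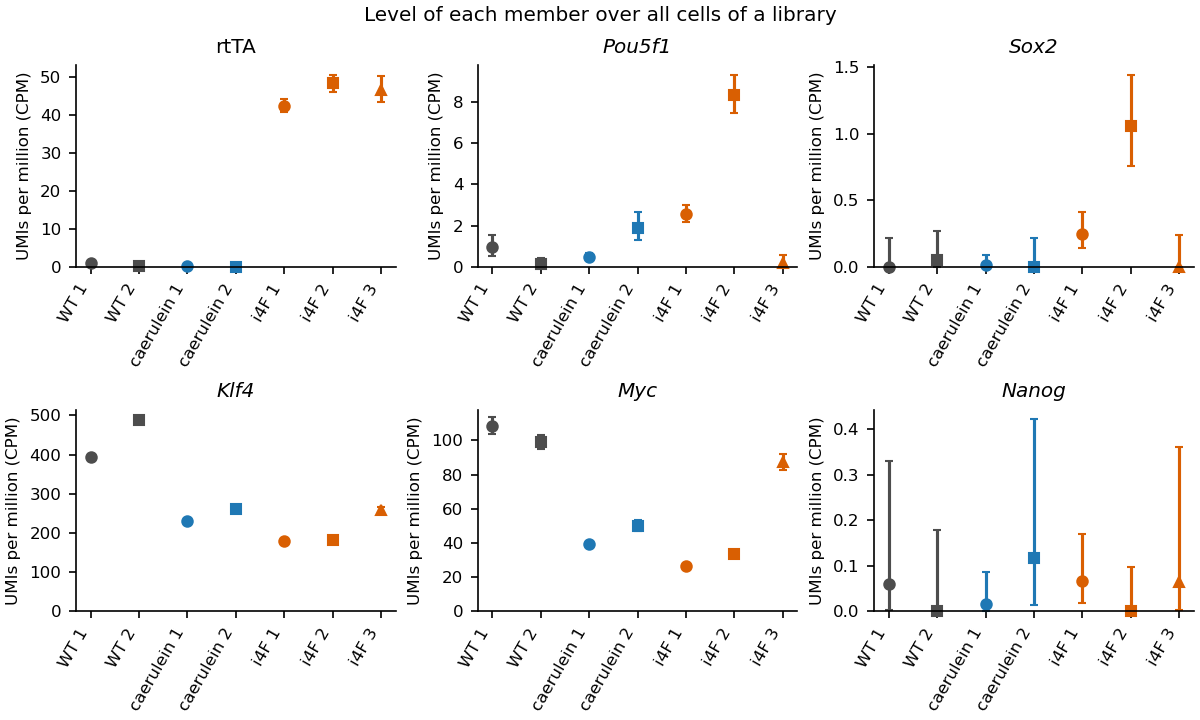
CPM (y axis) of each of the 6 genes over all cells of each library (x axis); bars are exact 95% Poisson intervals, which cover counting error only. rtTA lies between 42.5 and 48.3 CPM in the 3 i4F libraries and under 1 CPM in the other 4, whereas Pou5f1 and Sox2 are high in i4F 1 and i4F 2 and low in i4F 3.

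rtTA was present at one level in all i4F pancreata and was almost absent elsewhere. It stood at 42.5, 48.3 and 46.7 CPM in i4F 1, i4F 2 and i4F 3, at 0.951 and 0.145 CPM in WT 1 and WT 2, and at 0.108 and 0.0585 CPM in caerulein 1 and caerulein 2. The i4F libraries lay within a narrow band and far above the others, with no overlap. Pooled over libraries, rtTA was 88.7-fold higher in i4F than in WT (exact 95% interval of the counts, 56.7 to 147) and 460-fold higher than in caerulein (233 to 1067). Over all cells, edgeR's quasi-likelihood test gave a log2 difference from WT of 6.84 ± 0.67 (SE, n = 3 and 2) with an adjusted p of 0.0573, so rtTA did not pass 0.05. No gene did in that comparison: 0 of 18340 genes were called, 0% as background, while 6383 had an unadjusted p under 0.05 and DESeq2 called 4351. Without i4F 3 the same test gave 6.83 ± 0.54 with an adjusted p of 0.000415, and 9543 of 19180 genes were called. Without the 5% of cells with the most UMIs in each library it gave 9.60 (adjusted p = 0.0261), and without WT 1 it gave 8.54 (adjusted p = 0.102).

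All 9 cell classes of the i4F pancreas held rtTA in each i4F library. Ductal cells, the lining of the pancreatic ducts, had the highest mean, at 61.1, 90.0 and 101 CPM in i4F 1, i4F 2 and i4F 3 (84.1 ± 20.7, SD, n = 3). Endothelial cells followed at 40.8, 64.4 and 82.0 CPM, and smooth muscle cells at 37.8, 68.4 and 44.0 CPM. Stellate cells, the fibroblast-like cells that lay down pancreatic matrix, were the most even class at 43.9, 48.1 and 41.6 CPM (44.5 ± 3.34).

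The other classes lay lower. NK and T cells held 15.5, 62.8 and 50.1 CPM, with 3 UMIs behind the first value. Macrophages held 37.9, 44.1 and 34.2 CPM and B cells 44.5, 36.1 and 33.1 CPM. The class labelled acinar held 33.4, 46.3 and 23.2 CPM, where the values of i4F 1 and i4F 2 come mostly from the squamous-gene cluster Acinar_2, and the hormone-secreting endocrine cells 27.0, 44.0 and 30.6 CPM. The ranges of neighbours in this order overlapped in 8 of 8 pairs, so the order is a description of means.

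**Figure D2:**
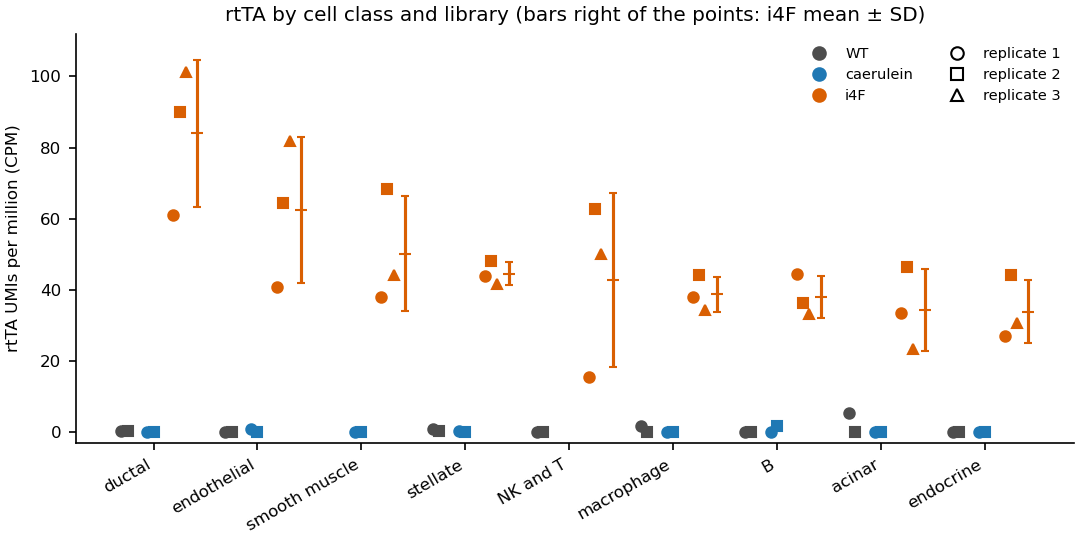
rtTA CPM (y axis) in each cell class (x axis), with 1 point per library (grey WT, blue caerulein, orange i4F) and the i4F mean ± SD beside the points. All i4F values lie above all WT and caerulein values of the same class, and the i4F means run from 84.1 CPM in ductal to 33.9 CPM in endocrine cells.

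The UMIs of rtTA were spread over classes much as all UMIs were. Stellate cells held 62.2% of the i4F rtTA UMIs and 62.0% of all i4F UMIs, and macrophages held 15.7% and 17.6%. Ductal cells were richer, with 7.27% of the rtTA UMIs and 3.82% of all UMIs, and acinar cells poorer, with 7.66% and 9.57%. A UMI of rtTA was seen in 33.1% and 31.7% of the stellate cells of i4F 1 and i4F 2 but in 11.2% of those of i4F 3, where the median stellate cell had 2554.5 UMIs against 9918 and 8942. At equal depth these differences were smaller: with each cell thinned to 1000 UMIs, 4.10%, 4.55% and 4.36% of all cells of i4F 1, i4F 2 and i4F 3 had a UMI of rtTA. Unthinned shares were 20.6%, 17.0% and 7.87%, and shallower cells (1860, 1919 and 3025 per library) were left out of the thinned ones.

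rtTA was higher in i4F than in WT in 3 classes by the test over all genes. The log2 difference was 8.56 ± 0.48 in ductal cells (adjusted p = 0.00313), 9.20 ± 0.76 in endothelial cells (adjusted p = 0.00477) and 6.83 ± 0.49 in stellate cells (adjusted p = 0.00428). In ductal cells 0.00861% of genes were called, in endothelial cells 0.81% and in stellate cells 20.6%, so rtTA was the 1 ductal gene called of 11619. It was not called in acinar cells (3.55, adjusted p = 0.0932, background 0.0808%), macrophages (6.39, adjusted p = 0.0554, background 0.00828%), NK and T cells (7.39, adjusted p = 0.0917, background 1.51%) or B cells (7.82, adjusted p = 0.122, background 0.0217%).

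Where WT libraries hold no rtTA, these fitted values depend on the prior count. From the counts, rtTA was 433-fold higher in ductal cells (exact 95% interval 119 to 3589), 109-fold in stellate cells (50.0 to 297), 85.1-fold in macrophages (15.2 to 3364) and 14.3-fold in acinar cells (5.53 to 52.6). The macrophage value rests on 1 WT UMI and the acinar value on 4. The fitted log2 difference in macrophages was 11.31 without WT 1 and 4.802 without WT 2, and in acinar cells 10.01 without WT 1 and 2.58 without WT 2. Against the floor of 3 UMIs over both WT libraries it was at least 100-fold higher in endothelial cells, at least 7.52-fold in B cells and at least 6.73-fold in NK and T cells. The ductal call was lost without WT 1 (adjusted p = 0.0722) and without WT 2 (adjusted p = 0.0993). Without i4F 3, rtTA was also called in acinar cells (3.59, adjusted p = 0.00400) and macrophages (6.53, adjusted p = 0.00312).

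Against caerulein libraries rtTA was higher in i4F in all 5 classes fitted for both groups. Endocrine and smooth muscle cells, which both groups also hold, were not fitted; caerulein libraries had 0 rtTA UMIs in either. The log2 difference was 10.83 in ductal cells (adjusted p = 0.00590, background 0.387%), 8.77 in macrophages (adjusted p = 0.00511, background 1.67%) and 8.56 in stellate cells (adjusted p = 0.00676, background 0.459%). It was 6.33 in endothelial cells (adjusted p = 0.0251, background 0.601%) and 9.84 in acinar cells (adjusted p = 0.0399, background 0.126%). These 5 were the only calls among the 21 tests of the 6 genes in this comparison, 4 of them over all cells and the rest in classes. Without caerulein 1, and without caerulein 2, none of the 5 was called. The ductal call was also lost without i4F 2 (adjusted p = 0.136), the endothelial call without i4F 1 (0.0521) or i4F 2 (0.0926), and the acinar call without WT 1 (0.0934), WT 2 (0.0920), i4F 1 (0.0674) or i4F 2 (0.115), without TMM (0.0572) and with only the groups compared (0.0807).

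The few rtTA UMIs outside i4F lay mostly in 1 WT library. WT 1 held 16 UMIs in 9 cells, all 9 among the 5% of its cells with the most UMIs (12175 to 75353). WT 2 held 3 UMIs in 3 cells, caerulein 1 held 7 in 7 cells and caerulein 2 held 1. None of these cells shared a barcode with an i4F cell. By class, WT rtTA was spread over mesothelium (6 UMIs), stellate (6), acinar (4), ductal (2) and macrophage cells (1). WT 1 has a library name of the same series as the i4F libraries and WT 2 one of the caerulein series. With the series as a term in the fit, rtTA in i4F against WT stayed called in stellate (6.12, adjusted p = 0.0491) and endothelial cells (9.20, adjusted p = 0.0189) and was not called in ductal cells (8.77, adjusted p = 0.124), and none of the 5 calls against caerulein was kept.

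The difference of i4F from WT was itself compared between classes, with acinar cells as the base. rtTA differed more in ductal than in acinar cells by 5.13 ± 1.25 on the log2 scale (adjusted p = 0.0270, background 4.87% of 14855 genes) and more in endothelial than in acinar cells by 7.64 ± 1.98 (adjusted p = 0.0308, background 5.91%). The acinar difference rests on the 4 acinar UMIs of WT 1. Without WT 1 the ductal value was -2.89 and the endothelial one 0.11, and neither was called. Both calls were also lost without WT 2 (adjusted p = 0.0751 and 0.103), i4F 1 (0.0825 and 0.0672) or i4F 2 (0.112 and 0.109). Without the cluster Acinar_2 they were 5.37 (adjusted p = 0.327) and 7.68 (adjusted p = 0.259), and i4F 1, with under 20 acinar cells left, dropped out of that fit.

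Pou5f1, the core factor of the cassette, was above the other libraries in 2 of 3 i4F libraries, and not in i4F 3. It stood at 2.54, 8.34 and 0.194 CPM in i4F 1, i4F 2 and i4F 3 (154, 315 and 3 UMIs), at 0.951 and 0.145 CPM in WT 1 and WT 2 (16 and 3 UMIs), and at 0.479 and 1.87 CPM in caerulein 1 and caerulein 2 (31 and 32 UMIs). The groups overlapped: i4F 1 and i4F 2 were the highest of the 7 libraries, whereas i4F 3 lay between the WT libraries, with rtTA as high as in the other i4F libraries. The pooled i4F level was 8.18-fold that of WT (5.18 to 13.7), and the log2 difference of 3.21 ± 1.51 was not called (adjusted p = 0.177). Without i4F 3, the i4F library with the least Pou5f1, it was 3.75 ± 0.97 (adjusted p = 0.0183), which is no separate support. It was 4.91 without WT 1, 2.43 without WT 2 and 1.87 without i4F 2, none of them called.

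Pou5f1 RNA was not spread like rtTA. It was highest in the squamous-type cluster Acinar_2, at 7.42 CPM (26 UMIs) in i4F 1 and 32.7 CPM (142 UMIs) in i4F 2. Activated_Pancreatic_Stellate_1 held 2.45 CPM (104 UMIs) and 4.78 CPM (108 UMIs), and Macrophages_1 held 1.82 CPM (18 UMIs) and 7.60 CPM (56 UMIs). In each of these clusters i4F 2 lay above i4F 1, with exact 95% intervals that did not overlap. i4F 3 held 0 UMIs in all 3 clusters, but it also had few of those cells, 59, 113 and 183, and the 3-UMI floors there were 10.7, 2.96 and 6.17 CPM.

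**Figure D3:**
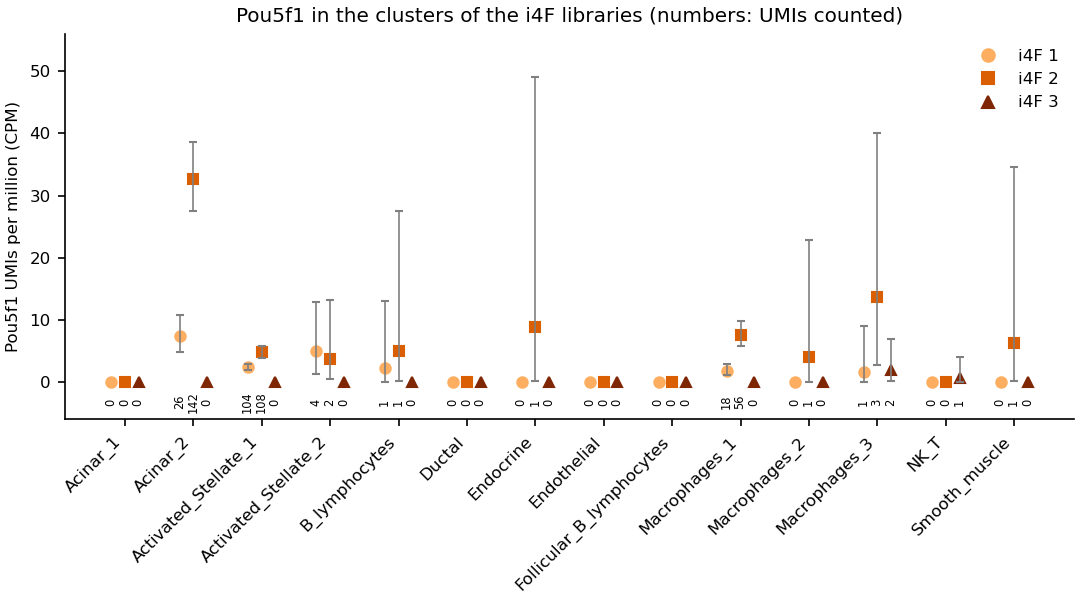
Pou5f1 CPM (y axis) in each cluster of the 3 i4F libraries (x axis), with exact 95% Poisson intervals where UMIs were counted and the number of UMIs under each point. Nearly all of the 472 Pou5f1 UMIs of i4F lie in Acinar_2, Activated_Stellate_1 and Macrophages_1, while Ductal and Endothelial hold 0 in all 3 libraries.

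Ductal and endothelial cells, the classes with the highest rtTA CPM, held no Pou5f1 UMI in any i4F library. In 976 ductal cells this allows up to 2.06, 3.70 and 1.44 CPM in i4F 1, i4F 2 and i4F 3 (3 UMIs of each total), and in 1422 endothelial cells up to 6.81, 5.22 and 3.90 CPM. These limits cover counting error only, and 0 UMIs does not show that the cassette was silent. WT ductal cells held 9 and 1 UMIs (1.52 and 0.239 CPM) and caerulein ductal cells none. Acinar cells held 0 in both WT libraries, 1 and 3 UMIs in caerulein 1 and caerulein 2, and 168 in i4F, which was at least 8.15-fold above WT. In stellate cells the pooled fold over WT was 8.94 (3.77 to 27.8), and in macrophages it was at least 2.86. Over caerulein the pooled folds were 3.53 (2.42 to 5.33) and 5.00 (3.09 to 8.42). Caerulein libraries reached 2.40 CPM in stellate cells and 1.74 CPM in macrophages. The i4F libraries ran from 0 to 4.75 CPM and from 1.29 to 7.66 CPM there, so the groups overlapped. The acinar and macrophage folds rest mostly on UMIs of i4F 2.

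No class was called for Pou5f1 with all 7 libraries: the log2 difference from WT was 8.32 in acinar cells (adjusted p = 0.256) and 3.03 in stellate cells (adjusted p = 0.143), and other classes fell under the count filter. Without i4F 3 both were called (8.94, adjusted p = 0.0255, and 3.44, adjusted p = 0.0214), when 32.7% and 47.8% of all genes were called in those classes. i4F 3 stood apart by its Pou5f1 counts, so these 2 calls are a description and no separate support. The acinar cells of i4F left in that fit were mostly Acinar_2. The ductal minus the acinar difference of i4F from WT was a fitted -14.04 on the log2 scale (adjusted p = 0.0411), a size set by the prior count because all i4F ductal and all WT acinar counts are 0. That call was lost without Acinar_2 (adjusted p = 1) and without WT 1, WT 2, caerulein 1, caerulein 2 or i4F 1 (adjusted p from 0.0829 to 0.442).

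Sox2 followed Pou5f1 at lower counts. It had 15, 40 and 0 UMIs in i4F 1, i4F 2 and i4F 3, 0 and 1 in WT, and 1 and 0 in caerulein, or 0.248, 1.06 and 0 CPM in the i4F libraries. Again i4F 1 and i4F 2 lay above all others and i4F 3 did not. The pooled fold over WT was 18.1 with a counting interval of 3.12 to 728, as it rests on 1 WT UMI. Acinar_2 held 0 and 18 UMIs, Activated_Pancreatic_Stellate_1 12 and 13, and Macrophages_1 2 and 6 in i4F 1 and i4F 2. Sox2 passed the count filter in no class.

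Nanog, the pluripotency gene outside the cassette, was not detectable above the other groups at this depth. The 7 libraries together held 9 UMIs, with 4, 0 and 1 in i4F, 1 and 0 in WT, and 1 and 2 in caerulein. All 5 i4F UMIs lay in stellate cells, as did the 3 caerulein ones.

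Cells with Pou5f1 were deep cells, with a median of 10488 UMIs in i4F against 2359 in cells without it. Of the 348 i4F cells with Pou5f1, 124 had rtTA and 15 had Sox2. Among cells with at least 5000 UMIs the shares drew closer for rtTA, at 41.0% of Pou5f1-positive and 36.3% of other cells in i4F 1, and 46.2% and 36.3% in i4F 2. For Sox2 they were 1.64% and 0.253% in i4F 1 (2 of 122 positive cells) and 6.29% and 0.72% in i4F 2 (9 of 143 cells). In i4F 3, 587 cells had that depth and none held Pou5f1, while 31.2% of them held rtTA. In i4F 2 the 10 cells with the most Pou5f1 held 23.5% of its UMIs, with up to 18 in 1 cell, and in i4F 1 they held 15.6%.

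Klf4 values were lower in i4F and caerulein libraries than in WT over the whole pancreas, without passing the test. The levels were 393 and 489 CPM in WT 1 and WT 2, 231 and 261 CPM in caerulein 1 and caerulein 2, and 180, 181 and 259 CPM in i4F 1, i4F 2 and i4F 3. Both WT libraries lay above all 5 others, and i4F 3 lay within the caerulein range. The log2 difference of i4F from WT was -0.72 ± 0.25 and was not called (adjusted p = 0.103); that of caerulein from WT was -0.47 (adjusted p = 0.249). With 7 classes weighted equally, WT again lay above all others, at 244 and 264 CPM in WT, 159 and 186 CPM in caerulein, and 122, 136 and 223 CPM in i4F. There i4F 3 lay above both caerulein libraries.

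In WT, Klf4 was a gene of vessel and connective tissue cells. It averaged 820 CPM in the cluster Lymph_nodes, which has lymphatic endothelial markers, 738 CPM in stellate cells, 659 CPM in mesothelium and 474 CPM in endothelial cells. Macrophages held 260 CPM, ductal cells 183 CPM, NK and T cells 130 CPM, and endocrine, B and acinar cells 47.8, 47.0 and 29.8 CPM. The ranges of neighbours overlapped in 6 of these 9 pairs. In i4F, smooth muscle cells, a class that WT lacks, averaged 383 CPM, stellate cells 369 CPM and endothelial cells 303 CPM, and endocrine and B cells were lowest (27.8 CPM each). Acinar cells, lowest in WT, lay above NK and T, endocrine and B cells in i4F (61.5 CPM).

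The class values of Klf4 differed in direction. In stellate cells they were 689 and 788 CPM in WT, 342 and 386 CPM in caerulein, and 206, 223 and 678 CPM in i4F, where i4F 3 sat beside WT. In endothelial cells they were 576 and 373 CPM in WT and 227, 252 and 429 CPM in i4F, which overlap. In acinar cells they were 33.9 and 25.7 CPM in WT, 58.4 and 72.3 CPM in caerulein, and 75.9, 72.7 and 36.0 CPM in i4F, so that all 5 other libraries lay above WT.

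Ductal Klf4 hardly separated i4F from WT, at 173, 234 and 224 CPM against 186 and 180 CPM, while caerulein was lower at 80.6 and 107 CPM. Macrophages held 126 and 394 CPM in WT and 120, 118 and 132 CPM in i4F, where WT 2 alone was high. NK and T cells held 153 and 107 CPM in WT and 56.7, 56.2 and 33.1 CPM in i4F, and B cells 46.3 and 47.6 CPM and 29.1, 33.1 and 21.2 CPM. In both classes the leading genes of the WT and i4F clusters differed. No class was called for i4F against WT: the log2 differences were -0.84 (stellate, adjusted p = 0.266), -1.0 (macrophage, 0.236), -1.39 (NK and T, 0.111), -0.87 (B, 0.665), -0.54 (endothelial, 0.425), 0.37 (ductal, 0.428) and 0.85 (acinar, 0.145).

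**Figure D4:**
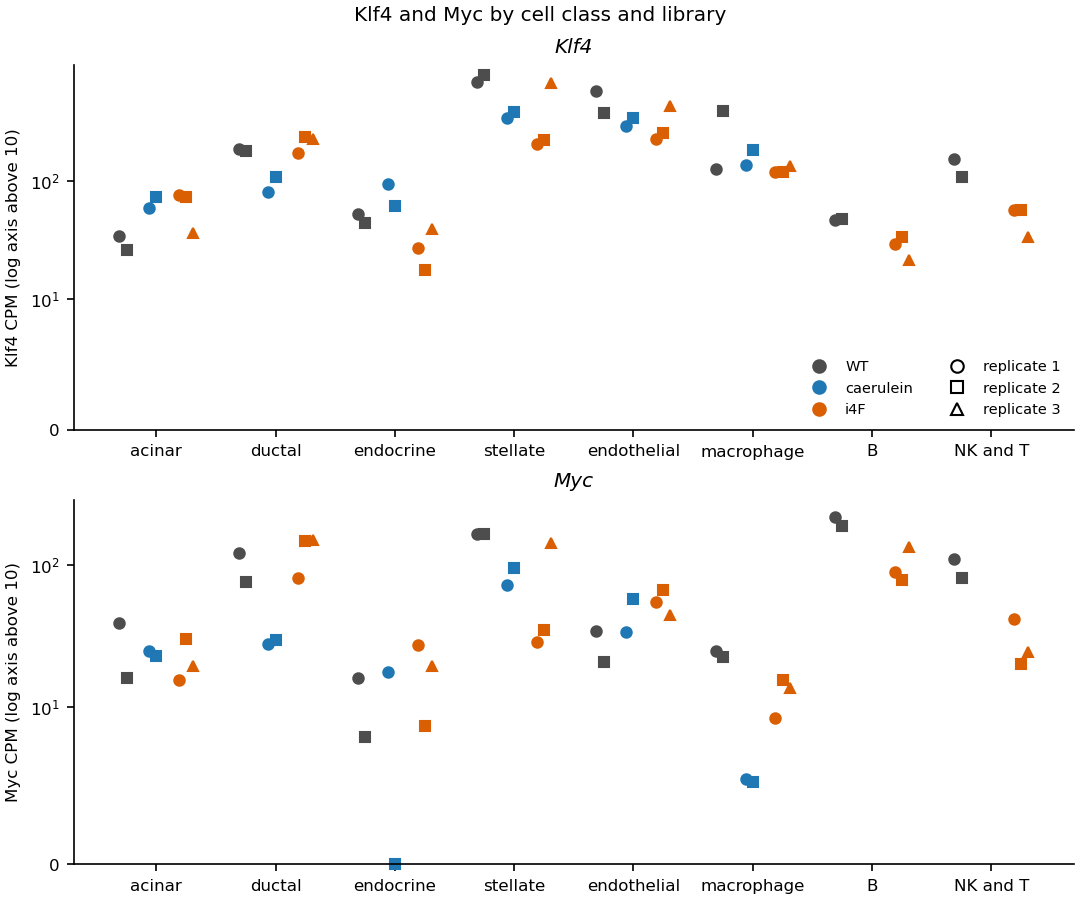
CPM of Klf4 (upper panel) and Myc (lower panel) on a y axis that is linear to 10 and logarithmic above, by cell class (x axis), with 1 point per library (colours for groups, shapes for replicate numbers). In stellate cells both WT points and i4F 3 lie above the caerulein points and i4F 1 and i4F 2. In cells labelled acinar, Klf4 of WT lies below the other libraries, of which i4F 3 is close to WT 1.

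The direction of Klf4 differed between stellate and acinar cells. The stellate difference of i4F from WT was below the acinar one by 1.96 ± 0.60 on the log2 scale when coded as stellate minus acinar (-1.96, adjusted p = 0.0344, background 11.3%). It was -1.72 for endothelial cells (adjusted p = 0.0866, background 5.91%) and -1.79 for macrophages (adjusted p = 0.0688, background 7.47%). Without Acinar_2 the stellate value was -0.84 (adjusted p = 0.609). It was also lost without WT 1 (adjusted p = 0.0911), WT 2 (0.219), caerulein 1 (0.0778), caerulein 2 (0.0772), i4F 1 (0.169) or i4F 2 (0.167), with values from -2.34 to -1.51.

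Myc, which drives growth and ribosome production, was highest in WT over all cells, as Klf4 was. It stood at 109 and 99.0 CPM in WT 1 and WT 2, 39.2 and 50.1 CPM in caerulein 1 and caerulein 2, and 26.4, 33.3 and 87.2 CPM in i4F 1, i4F 2 and i4F 3. WT was above the rest, and for Myc, i4F 3 was much nearer to WT than to the other i4F libraries. The log2 difference of i4F from WT was -0.71 ± 0.49 (adjusted p = 0.322) and that of caerulein from WT -0.83 (adjusted p = 0.284), where 9.08% of genes were called. With 7 classes weighted equally the values were 88.3 and 70.7 CPM in WT, 27.8 and 31.2 CPM in caerulein, and 43.4, 54.5 and 74.5 CPM in i4F, where i4F and WT overlap.

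In WT, Myc was highest in B cells (203 CPM) and stellate cells (165 CPM), followed by ductal (98.1), NK and T (95.4) and mesothelial cells (37.9). It was lowest in endocrine cells (12.0 CPM). Neighbouring ranges overlapped in 5 of 9 pairs. In i4F, ductal cells led with 126 CPM, ahead of B (100.0), stellate (68.5) and endothelial cells (54.9), and 7 of 8 pairs overlapped.

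Stellate Myc was 166 and 164 CPM in WT, 72.3 and 94.9 CPM in caerulein, and 28.7, 34.9 and 142 CPM in i4F. Ductal Myc was 121 and 75.7 CPM in WT, 27.4 and 29.5 CPM in caerulein, and 80.3, 148 and 150 CPM in i4F. In stellate cells i4F 1 and i4F 2 were the lowest of all 7, whereas in ductal cells they were within or above the WT range and caerulein was lowest. Endothelial Myc was higher in i4F, at 54.5, 66.1 and 44.2 CPM, than in WT, at 34.4 and 20.7 CPM.

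NK and T cells held 109 and 81.3 CPM of Myc in WT and 41.2, 19.8 and 24.3 CPM in i4F. B cells held 218 and 188 CPM in WT and 89.1, 78.3 and 133 CPM in i4F. In both classes the leading genes of the WT and i4F clusters differed, so unlike cells may be compared. Acinar values overlapped, at 39.1 and 15.9 CPM in WT and 15.3, 30.2 and 19.4 CPM in i4F. For Myc no class was called for i4F against WT: NK and T -1.69 (adjusted p = 0.0659), B -1.0 (0.651), stellate -1.11 (0.241), endothelial 1.08 ± 0.31 (0.136), ductal 0.53 (0.403), macrophage -0.79 (0.210) and acinar -0.48 (0.525).

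Macrophage Myc fell in caerulein mice, and it was the 1 call of 21 tests of the 6 genes for caerulein against WT, of which 4 were over all cells. It stood at 24.6 and 22.4 CPM in WT, 5.43 and 5.23 CPM in caerulein and 9.26, 15.3 and 13.5 CPM in i4F. The log2 difference of caerulein from WT was -2.06 ± 0.33 (adjusted p = 0.0338), where 5.66% of 12077 genes were called. Of the genes tested, caerulein against WT called 4.11% in endothelial, 17.1% in stellate and 0.0359% in acinar cells, with none of the 6 genes among them. The macrophage call was lost without WT 1 (adjusted p = 0.0768), WT 2 (0.0844), caerulein 1 (0.236), caerulein 2 (0.211) or i4F 1 (0.0515), with values from -2.12 to -1.89. The compared classes held different cells: 56.7% and 18.7% of the WT 1 and WT 2 macrophage class lay in a cluster led by dendritic markers, and 8.27% and 2.96% of the caerulein 1 and caerulein 2 class in one led by neutrophil markers. Without those clusters the Myc value was -2.16 (adjusted p = 0.0143). Ductal Myc missed the threshold for caerulein against WT (-1.61 ± 0.37, adjusted p = 0.0528, background 3.53%) and for i4F against caerulein (2.14 ± 0.35, adjusted p = 0.0525).

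The stellate values of Klf4 and Myc differed between clusters and, within a cluster, between libraries. In WT, Quiescent_Pancreatic_Stellate_2 held 950 and 1377 CPM of Klf4 and Quiescent_Pancreatic_Stellate_1 608 and 635 CPM. In i4F 1, i4F 2 and i4F 3, Activated_Pancreatic_Stellate_1 held 198, 214 and 458 CPM and Activated_Pancreatic_Stellate_2 held 587, 595 and 752 CPM. The second activated cluster was higher than the first in each library, and i4F 3 was the highest within each cluster. The second activated cluster is the one with the mesothelial genes Slpi, Dmkn and Upk3b among its leading genes, and the mesothelium class itself held 659 CPM of Klf4 in WT and 729 CPM in caerulein. The part of such cells in the values of i4F 3 was not tested. Myc ran alike, at 27.7, 33.5 and 56.3 CPM in the first and 81.4, 93.0 and 171 CPM in the second. Clusters were built from the same counts, so this is a description.

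Without i4F 3 both genes were lower in i4F than in WT in stellate cells, by -1.66 ± 0.18 for Klf4 (adjusted p = 0.000606) and -2.24 ± 0.17 for Myc (adjusted p = 0.000182), where 47.8% of genes were called. Both were then also lower in caerulein than in WT (Klf4 -0.88, adjusted p = 0.00853; Myc -0.84, adjusted p = 0.00887), where 39.7% were called. Over all cells they were lower in i4F than in WT by -0.91 (adjusted p = 0.00914) and -1.41 (adjusted p = 0.00107), where 49.8% were called. Acinar Klf4 was then higher in i4F than in WT by 0.96 (adjusted p = 0.0168), and without Acinar_2 its value was 0.25 (adjusted p = 0.842). i4F 3 stood apart by its own Klf4 and Myc levels, so these calls without it are a description and no separate support. Leaving out i4F 3 raised the calls of the 6 genes, over all cells and classes together, from 3 to 16 for i4F against WT, from 1 to 7 for caerulein against WT and from 5 to 12 for i4F against caerulein. The share of all genes called rose too. In acinar, ductal, stellate, endothelial and macrophage cells it became 32.7%, 26.5%, 47.8%, 14.3% and 12.4% for i4F against WT. It became 19.4%, 32.2%, 39.7%, 11% and 16.4% for caerulein against WT. For i4F against caerulein it became 22.5%, 3.23%, 11.5%, 0.911% and 10.1%.

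Immediate early genes, which cells switch on within minutes of stress and also during tissue dissociation, differed between libraries as Klf4 and Myc did in stellate cells, but not in ductal cells, nor as Myc did in endothelial cells. Summed over 25 such genes (neither Klf4 nor Myc among them), stellate cells held 30537 and 36273 CPM in WT, 11564 and 13555 CPM in caerulein, and 7492, 8311 and 22432 CPM in i4F. Ductal cells held 40572 and 43925 CPM in WT, 12696 and 12752 CPM in caerulein, and 12959, 17147 and 41108 CPM in i4F. Endothelial cells held 30465 and 39911 CPM in WT and 10582, 11953 and 33677 CPM in i4F. In each of these classes i4F 3 sat nearest to WT. Ductal early genes of i4F 1 and i4F 2 lay far below WT while ductal Klf4 and Myc of i4F lay around WT, and endothelial Myc was higher in i4F than in WT. The part of these genes' level in the Klf4 and Myc differences was not tested.

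**Figure D5:**
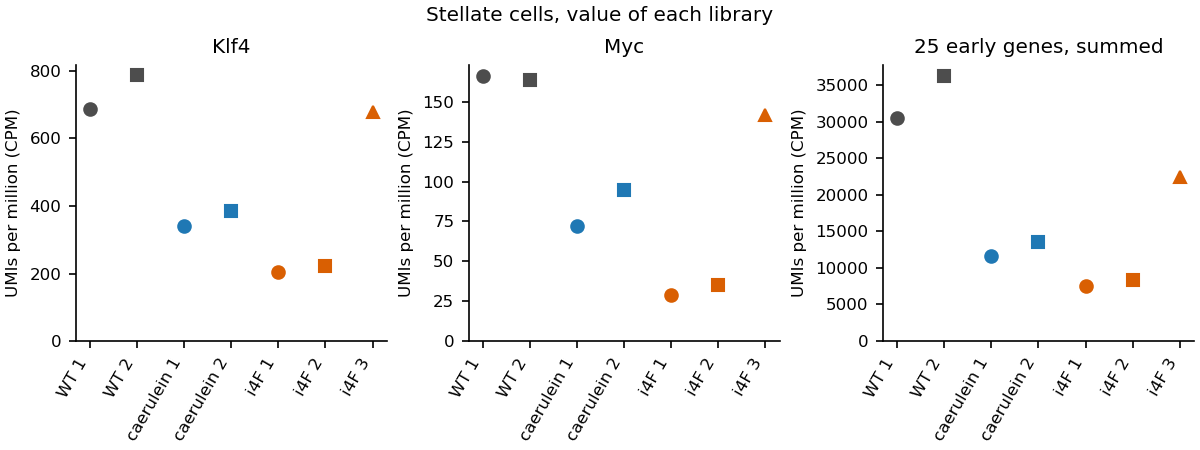
CPM in stellate cells of each library (x axis) for Klf4, Myc and the sum of 25 immediate early genes (y axes from 0). In all 3 panels i4F 1 and i4F 2 are lowest, while i4F 3 lies near or between the WT and caerulein libraries.

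No gene of this list was called in acinar cells, and the genes named for other classes, here and in the lists that follow, were chosen after their values were seen. Ier3, an early gene linked to survival, rose in i4F stellate cells by 1.81 (adjusted p = 0.0217) and no other of the 25 genes was called, where 20.6% of all genes were, with a list median of -0.99 against 0.018 over all genes. In NK and T cells Fosb fell by 2.14 (adjusted p = 0.0232) and Nr4a1 by 1.82 (adjusted p = 0.0299), both early transcription factors, 2 of 21 tested where 1.51% of all genes were called. NK markers were highest in the WT cluster of this class and T cell markers in the i4F one. In caerulein macrophages, beside the Myc call, 5 of 25 early genes fell against WT, where 5.66% of all genes were called, among them Egr3 (-4.68), Egr1 (-3.17) and Btg2 (-1.98). Without i4F 3, 21 of the 25 early genes were lower and 2 higher in i4F than in WT stellate cells, where 47.8% of all genes were called (3844 higher and 3828 lower of 16058).

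Genes of the MYC network, which include partners of MAX as well as known MYC targets, did not follow the Myc level in stellate cells. Myc itself was not called there (-1.11, adjusted p = 0.241), and the relation was not tested. Of 45 tested genes of the MYC network and its targets, 24 rose and 1 fell in i4F against WT, with a median log2 difference of 0.97 against 0.018 over all genes, where 12% of genes rose and 8.58% fell. The largest were Mxd3, a partner of MAX (6.32 ± 0.63, adjusted p = 0.0115), the spermidine synthase gene Srm (2.02, adjusted p = 0.0328) and the nucleotide kinase gene Nme1 (1.96, adjusted p = 0.0197). The gene that fell was the cyclin gene Ccnd2 (-1.11, adjusted p = 0.0299). Caerulein against WT called 8 higher and 3 lower of the 45 in stellate cells (median 0.47), where 17.1% of all genes were called. Between i4F and caerulein 0 of the 45 were called, where 0.459% of all genes were. Summed over the list, stellate cells held 5470 and 5791 CPM in WT, 9513 and 9296 CPM in caerulein, and 12584, 13344 and 8014 CPM in i4F. Here i4F 1 and i4F 2, which had the least Myc, were highest, and WT, which had the most Myc, was lowest.

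Outside stellate cells this list had 1 call for i4F against WT, the MAX dimerization gene Mxd1 in endothelial cells (2.46, adjusted p = 0.0275), of 39 tested there, where 0.81% of all genes were called. None of 44 was called in acinar cells, of 44 in ductal cells, of 45 in macrophages, of 32 in NK and T cells, or of 35 in B cells. Over all cells none of 46 was called, with a median of 0.99 against 0.039. Without i4F 3, 22 rose and 2 fell in acinar cells, 22 rose and 1 fell in ductal cells, 15 rose in endothelial cells, and 5 rose and 1 fell in macrophages. Of all genes, that fit called 32.7% in acinar, 26.5% in ductal, 14.3% in endothelial and 12.4% in macrophage cells. Splits in stellate cells depend on the scaling: with TMM 1775 genes were higher and 1271 lower, and with library totals alone 1354 and 1864.

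For i4F against WT, other pluripotency genes were called in stellate cells alone among the 7 classes and in both directions. Their share was not tested against that of all genes. Of 20 tested, 3 rose and 3 fell, where 12% of all stellate genes rose and 8.58% fell. Those that rose were Dnmt3l, a cofactor of DNA methylation (2.10, adjusted p = 0.0211), Fut4, which makes the SSEA1 epitope (1.81, adjusted p = 0.0262), and Trim28, a corepressor (0.97, adjusted p = 0.0301). Those that fell were the demethylase gene Tet1 (-2.65, adjusted p = 0.0184), Id2 (-1.36, adjusted p = 0.0412) and Lefty1 (-1.24, adjusted p = 0.0321). Caerulein against WT also called 3 higher and 3 lower of the 20 in stellate cells, where 17.1% of genes were called, and 1 lower of 18 in macrophages; i4F against caerulein called none in any class. In acinar cells 0 of 18 were called for i4F against WT, with 8 higher and 3 lower without i4F 3, when 32.7% of all acinar genes were called. Among the relatives of the factors, 26 KLF, SOX and POU genes were tested in stellate cells and 4 were called, where 20.6% of all stellate genes were. Sox11 rose (2.02, adjusted p = 0.0415), while Sox8 (-2.39, adjusted p = 0.0412), Klf12 (-1.76, adjusted p = 0.0244) and Klf7 (-1.22, adjusted p = 0.0438) fell.

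The loci that carry the transgenes had low values in i4F. The Rosa26 transcript Gt(ROSA)26Sor, on chromosome 6 (113067428 to 113077333), stood at 40.1 and 29.7 CPM in WT, 16.0 and 16.0 CPM in caerulein, and 10.1, 13.6 and 10.7 CPM in i4F. Over all cells its log2 difference of i4F from WT was -1.21 ± 0.21 (adjusted p = 0.0592), and in stellate cells it fell by 1.05 ± 0.26 (adjusted p = 0.0370), where 8.58% of all genes were called lower. Pparg, on chromosome 6 (115360951 to 115490399) and known as a regulator of fat and macrophage lipid genes, stood at 7.07 and 9.31 CPM in WT, 3.47 and 2.87 CPM in caerulein, and 0.793, 0.795 and 3.81 CPM in i4F. Both loci also had lower values in caerulein than in WT libraries, neither called. The part of the insertions in the i4F values was not tested. The Pparg differences of i4F from WT were not called over all cells (-1.88, adjusted p = 0.124) or in macrophages (-4.18, adjusted p = 0.139).

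Shares of cells with a UMI were also compared in cells of equal depth. Thinned to 1000 UMIs, Klf4 was seen in 29.2% ± 2.17 of WT cells (SD, n = 2), 17.4% ± 1.71 of caerulein cells (n = 2) and 14.8% ± 1.54 of i4F cells (n = 3). Myc was seen in 8.46% ± 0.37, 3.36% ± 0.885 and 4.30% ± 2.85, and Pou5f1 in 0.0462% ± 0.0494, 0.111% ± 0.0932 and 0.309% ± 0.332. rtTA was seen in 0.0187% ± 0.00245 of WT, 0.0100% ± 0.00364 of caerulein and 4.34% ± 0.229 of i4F cells. Klf4, Myc and rtTA of i4F and WT did not overlap. The exact two-sided permutation p of each of these 3 differences was 0.2, the smallest that 3 against 2 mice allow, and 0.72 adjusted over 18 tests.

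Over 50 sums of a library and class with at least 100 cells, the genes with the most similar profile were named for each member with at least 200 UMIs, as a description without a test. Profiles were compared by Pearson's r of log2(CPM + 1) among 8713 genes, and sums of 1 library share its depth and tissue. Klf4 was most like Tnfrsf1a (0.91), Tbc1d2b (0.86) and Sntb2 (0.85), and Myc like Adm (0.72), Sox5 (0.64) and Rnf122 (0.64). Pou5f1 was most like Spink2 (0.70), Krt6a (0.67) and Slurp1 (0.66), the last 2 being squamous epithelial genes. rtTA was most like Reg3a (0.76), Muc5ac (0.75) and Rps29 (0.72).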

How the data were processed

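Whole pancreata of 7 mice (2 WT, 2 caerulein, 3 i4F, 1 library each) were profiled by the authors with 10x Genomics Chromium 3′ single-cell RNA-seq. Reads were aligned to GRCm38 with Cell Ranger (version not given in the sources used here). The deposited counts are whole-number UMIs per gene and cell. The authors used Seurat and SoupX; whether the deposited counts precede or follow the SoupX correction for free RNA is not given in the sources used here. Cells with few genes or a high percentage of mitochondrial UMIs, a percent column that the authors deposited per cell, had been removed, and clusters were named by the authors within each condition. Doublets were not called again and may remain.

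Here cells were grouped into classes by the authors' cluster names. UMIs were summed per library and class (at least 20 cells) and divided by the sum over all genes with a row to give CPM. Only 2 of the 21 acinar markers have a row, so acinar CPM is relative to totals that lack the others. Sums were fitted with edgeR 4.0.16 in R 4.3.3 (TMM scaling, filterByExpr, quasi-likelihood test, all 3 groups in 1 fit; NK and T and B cells with WT and i4F only, as no caerulein T cell cluster was named and the caerulein B cells had dendritic markers), and p-values were adjusted by Benjamini-Hochberg over all genes tested in a class. A call is an adjusted p under 0.05. The scripts used python 3.11.15, numpy 2.4.6, scipy 1.17.1 and pandas 2.3.3, and the fits were first tested on simulated data. Each p-value of a fit within a cell set measures the spread between mice. The fit of differences between classes gives each mouse its own level, so its p-values measure the spread of classes left within mice. Levels between cell classes carry no test, because clusters were built from the same counts. Intervals are exact 95% intervals and floors are 3 counts; both cover counting error only, and free RNA can add UMIs to any cell.

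Each difference within a cell set was refitted with DESeq2 1.42.0, unscaled library totals, every gene kept and the compared groups alone. Other refits added replicate number or library name series as a term, or used cells of at least 500 genes. The top 5% of cells by UMIs, and each library in turn, were also removed. Differences between classes were refitted only with unscaled totals, every gene kept, cells of at least 500 genes, each library removed and without Acinar_2. Shares of cells were repeated thinned to 500 UMIs, unthinned and with each library removed. All 3 tables were used, and 0 per-sample columns were left unmapped. The members and gene lists were chosen with earlier results of these data known. The text names the 6 members, Pparg and Gt(ROSA)26Sor, the 3 genes called in acinar cells with the largest change in each list (none was called), and the 3 genes most like each member that has at least 200 UMIs, among genes with a mean of at least 10 CPM over sums of at least 100 cells. Every other gene was named after its values were seen.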

Additional observations from a re-analysis of the deposited data

Results flagged for a closer look

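Between acinar cells and another class, 4 differences of i4F from WT themselves differed, by a test of the difference over 14855 genes (edgeR's quasi-likelihood test, adjusted over genes within each class). rtTA, Pou5f1, Klf4 and Myc were each tested in ductal, stellate, endothelial and macrophage cells. Of all genes, 4.87%, 11.3%, 5.91% and 7.47% were called in these classes. For rtTA the ductal minus acinar value was 5.13 (adjusted p = 0.0270) and the endothelial minus acinar value 7.64 (adjusted p = 0.0308), both on the log2 scale. For Klf4 the stellate minus acinar value was -1.96 (adjusted p = 0.0344). For Pou5f1 the ductal minus acinar value was -14.04 (adjusted p = 0.0411), a size that depends on the prior count. Without Acinar_2, which leads with squamous epithelial genes, none of the 4 was called; i4F 1 then dropped out of the fit, the rtTA values were 5.37 and 7.68, the Klf4 value -0.84 and the Pou5f1 value -6.03. Without WT 1 the rtTA values were -2.89 and 0.11.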

How the results depend on the processing

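The calls of the 6 genes, counted over the fit of all cells and those of the classes, moved with the processing. For i4F against WT 3 were called, against 7 with DESeq2, 7 without TMM, 14 without the filter, 17 with the replicate block, 5 without the 5% of cells with most UMIs, and 2 to 16 with a library left out. For caerulein against WT 1 was called, against 4 with DESeq2, 2 without TMM, 3 without the filter, 6 with only the groups compared, 7 with the replicate block, 0 with the library name series, 2 without the 5% of cells with most UMIs, and 0 to 7 with a library left out. For i4F against caerulein 5 were called, against 9 with DESeq2, 11 without the filter, 8 with the replicate block, 0 with the series, and 0 to 12 with a library left out. The share of all genes called moved as well: for i4F against WT in acinar, ductal and stellate cells the block called 29.6%, 19.2% and 43.9% of all genes, DESeq2 8.01%, 3.21% and 26.7%, and no filter 8.34%, 5.44% and 16.3%, against 0.0808%, 0.00861% and 20.6%. For caerulein against WT over all cells and in acinar, ductal and stellate cells the block called 40.5%, 16.7%, 23.5% and 35.3%. DESeq2 called 29.9%, 8.15%, 9.8% and 24.8% there, against 9.08%, 0.0359%, 3.53% and 17.1%. In macrophages the block called 9.96% and DESeq2 13.7%, against 5.66%. For i4F against caerulein in acinar, ductal, stellate, endothelial and macrophage cells the share was 0.126%, 0.387%, 0.459%, 0.601% and 1.67%. There DESeq2 called 5.42%, 2.2%, 5.33%, 1.46% and 8.98%, and no filter 5.78%, 3.5%, 3.99%, 1.96% and 6.8%. The block called 19.2%, 0.8%, 5.96%, 0.331% and 3.19%. rtTA in all i4F cells (6.84) passed with DESeq2 (6.86), no TMM (6.42), no filter (6.85), the replicate block (6.92) and without the 5% of cells with most UMIs (9.60), and ran from 6.05 to 8.54 with a library left out. The calls between classes were 4, 0 to 9 with a library left out, and 0 without Acinar_2. Leaving out Acinar_2, leaving out clusters led by another class's markers (4, 1 and 6 calls) and the crossed block were chosen after seeing the data. The cause was not tested in any case.

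The replicate numbers did not pair the libraries: deviations of same-numbered WT and caerulein libraries correlated at -0.366 over all cells and WT and i4F ones at -0.0521. The block gives i4F 3 a level of its own. Crossing the caerulein numbers gave 7 calls of the 6 genes against WT, as the block did. Of all genes, the crossed block called 47.2% over all cells. It called 20.2% in acinar, 29.6% in ductal, 41.8% in stellate and 15.5% in macrophage cells.

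Library totals without TMM moved the median of all genes for i4F minus WT by -0.38 in all cells, 0.18 in acinar and -0.16 in stellate cells, so changes are relative to that shift. These differences turned. With the series, i4F minus caerulein became -0.76 for Pou5f1 and 0.22 for Klf4 in all cells, -0.062 for Klf4 and -0.96 for Myc in acinar cells, -0.064 for Pou5f1 in stellate cells, -0.26 for Myc in endothelial cells and 1.37 for Klf4 in macrophages, i4F minus WT 0.091 for Klf4 in macrophages, and caerulein minus WT 2.34 for rtTA in macrophages. Without the 5% of cells with most UMIs, rtTA in caerulein minus WT became 0.90 in all cells and 2.32 in macrophages. With the block, i4F minus caerulein became -0.58 for Myc in all cells and -0.77 for Klf4 in stellate cells. Without TMM, it became -0.082 for Klf4 and -0.13 for Myc in acinar cells. With at least 500 genes per cell it became 0.0056 for endothelial Klf4, and the macrophage minus acinar difference of Myc 0.048. Without Acinar_2, acinar Klf4 in i4F minus caerulein became -0.32, and differences from acinar cells 0.28 (Klf4, ductal), 0.66 (Pou5f1, stellate), 5.63 (Pou5f1, macrophage) and 0.13 (Myc, macrophage).

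With a library left out, i4F minus caerulein ran from -0.57 to 0.43 (Myc, all cells), -0.78 to 0.33 (Klf4, stellate), -1.41 to 0.11 (Myc, stellate), -0.45 to 0.14 (Klf4, endothelial) and -0.0019 to 0.60 (Myc, endothelial). i4F minus WT ran from -0.94 to 0.32 (Myc, acinar) and -1.50 to 0.11 (Klf4, macrophage). Caerulein minus WT ran from -1.24 to 0.024 (Myc, acinar), -1.18 to 0.43 (Klf4, macrophage) and -4.09 to 2.51 (rtTA, macrophage). Differences from acinar cells ran from -2.89 to 6.22 (rtTA, ductal), -3.68 to 3.42 (rtTA, stellate) and -0.92 to 0.34 (Myc, macrophage). Shares of cells, in percentage points, ran from -0.00143 to 0.130 (Pou5f1) and -0.00777 to 0.000471 (Sox2) for caerulein minus WT, from -0.699 to 1.88 (Myc) and -0.0140 to 0.000114 (Nanog) for i4F minus caerulein, and from -0.000359 to 0.00167 (Nanog) for i4F minus WT. Unthinned, Nanog in i4F minus caerulein was 0.000459.

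Among the members, Sox2, Nanog and Pou5f1 had the fewest UMIs, with 57, 9 and 554 in all, so counting error weighs most on them.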
